A study of Homo sapiens with 17 samples.

Results

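The genes described here encode the nuclear subunits of the mitochondrial respiratory chain, complexes I to V. They were chosen by symbol alone: every row of the deposited table whose name begins NDUFA, NDUFB, NDUFC, NDUFS or NDUFV with a digit, UQCR, one of SDHA to SDHD, COX4 to COX8, or ATP5. This gave 93 of the 27315 symbols in the table, with 42 for complex I, 4 for complex II, 10 for complex III, 17 for complex IV and 20 for complex V. Of these, 82 are subunits. The other 11 symbols are 3 antisense genes, 2 pseudogenes, 2 retrocopies, 2 readthrough genes and 2 genes that carry an ATP5 name but code for no subunit, ATP5S and ATP5SL. NDUFA4 and NDUFA4L2 are counted with complex I by their symbols, although NDUFA4 is a protein of cytochrome c oxidase, complex IV.

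The respiratory chain passes electrons from NADH and succinate to oxygen. Complex I (NADH dehydrogenase) and complex II (succinate dehydrogenase, which is also an enzyme of the citrate cycle) feed electrons to ubiquinone, complex III hands them to cytochrome c and complex IV to oxygen. Complexes I, III and IV pump protons, and complex V, the ATP synthase, lets them flow back to make ATP. Clear cell renal carcinoma is known for low respiratory activity and high glycolysis, and HIF signalling is one known regulator of several subunit isoforms, COX4I2 and NDUFA4L2 among them.

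RNA was measured in 786-O, an established line from a clear cell renal carcinoma, in every group compared here. The line lacks working VHL, so HIF2a protein escapes degradation through VHL. No protein was measured here, and its level in each group is unknown. The cells carried Cas9 and 1 guide from a pLenti CRISPR-V2 puro vector whose virus was made in 293T cells, and the title of the series names the deubiquitination of HIF2a by USP37. Of the 17 libraries, 3 each were HIF2a_sg4, HIF2a_sg6, USP37_sg3, USP37_sg9 and the scrambled guide of the HIF2a experiment, and 2, numbered 2 and 3, were the scrambled guide of the USP37 experiment. The labels call the samples triplicates without saying whether they were separate cultures, pools or clones, so the p-values may rest on technical spread alone. EPAS1, the gene of HIF2a, fell by 1.97 on the log2 scale with the HIF2a guides (SE 0.10, limma adjusted p = 2.21e-12), and USP37 fell by 1.00 with the USP37 guides (SE 0.14, limma adjusted p = 1.22e-05).

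The deposited unit is a log2-like, variance-stabilised value that the authors corrected for batch. Its floor was 5.14. Depth is unknown, a difference of a weakly expressed gene is understated on this scale, and values of different genes are not per length and are not compared. A gene was tested where its mean lay at least 1 unit above that floor, which kept 12484 genes and 79 of the 93 symbols, among them 75 of the 82 subunits. A gene "passed" at a Benjamini-Hochberg adjusted p under 0.05 from a limma fit over all 12484 genes, and every adjusted p below comes from that fit. The 7 subunits left out, COX4I2, COX6A2, COX6B2, COX7A1, COX7B2, COX8C and NDUFA4L2, lay near the floor in every library, at 5.09 to 5.90. None of the 13 mitochondrially encoded subunits has a row in the table.

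The carcinoma markers PAX8 (12.18 to 12.99), VIM (15.82 to 16.64), KRT8 (12.71 to 13.58) and KRT18 (11.16 to 12.12) were high in all libraries. The carcinoma marker PAX2 lay at 7.57 to 8.64, and EPAS1, itself a targeted gene, at 9.43 to 12.17. The mature tubule markers LRP2, SLC34A1, UMOD and AQP2 lay between 5.01 and 5.84. Leukocyte markers reached at most 6.78 and endothelial markers at most 6.63. Of 5 markers of the packaging line, NEFL lay at 10.55 to 11.95 and HOXA13 at 6.18 to 7.50, and the other 3 at 5.11 to 6.24. With USP37 sg9 NEFL fell by 0.76 (adjusted p = 9.13e-06) and HOXA13 by 0.83 (adjusted p = 0.000332), and with sg3 by 0.60 (adjusted p = 0.000187) and 0.49 (adjusted p = 0.0249). Of 6 carcinoma markers, EPAS1 among them, 4 were higher and 2 lower with sg9 and 4 higher and 1 lower with sg3. The part of these marker changes in the subunit values was not tested. Of the fibroblast markers, LUM reached 8.06 and COL1A1 7.72. In the HIF2a experiment 3 libraries stood apart from their groups: sg6 libraries 2 and 3, whose genes lay a median of 0.125 from the group mean, and control library 2, at 0.0946. The other HIF2a libraries lay at 0.0597 to 0.0799 and the USP37 libraries at 0.0631 to 0.0894.

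Promoters of 4 genes are shown because their genes frame the results: NDUFS3 and SDHB were higher with both USP37 guides, UQCRH was among the largest rises with USP37 sg9, and SDHA was lower with both. Each run is the 250 bases before the annotated start, 5′ to 3′ on the gene's strand, from RefSeq on GRCh38.p14. Capitals mark matches on either strand to the NRF1 consensus motif or the GABP motif CCGGAAG, which do not overlap here.
NDUFS3, chr11:47578824-47579073, plus strand: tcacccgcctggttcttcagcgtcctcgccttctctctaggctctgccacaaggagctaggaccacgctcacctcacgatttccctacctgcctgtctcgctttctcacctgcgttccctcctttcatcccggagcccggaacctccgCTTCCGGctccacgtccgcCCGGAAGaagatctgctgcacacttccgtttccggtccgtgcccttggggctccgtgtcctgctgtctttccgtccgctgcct
UQCRH, chr1:46303448-46303697, plus strand: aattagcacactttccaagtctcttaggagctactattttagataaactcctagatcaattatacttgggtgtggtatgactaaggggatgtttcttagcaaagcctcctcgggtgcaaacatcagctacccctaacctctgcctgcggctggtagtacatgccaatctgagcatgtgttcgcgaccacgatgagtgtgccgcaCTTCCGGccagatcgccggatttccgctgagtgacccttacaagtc
SDHB, chr1:17054033-17054282, minus strand: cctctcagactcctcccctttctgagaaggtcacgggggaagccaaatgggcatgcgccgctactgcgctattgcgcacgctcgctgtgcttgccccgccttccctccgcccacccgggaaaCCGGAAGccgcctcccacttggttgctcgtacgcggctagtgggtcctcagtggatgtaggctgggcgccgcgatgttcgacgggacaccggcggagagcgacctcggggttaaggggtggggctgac
SDHA, chr5:218070-218319, plus strand: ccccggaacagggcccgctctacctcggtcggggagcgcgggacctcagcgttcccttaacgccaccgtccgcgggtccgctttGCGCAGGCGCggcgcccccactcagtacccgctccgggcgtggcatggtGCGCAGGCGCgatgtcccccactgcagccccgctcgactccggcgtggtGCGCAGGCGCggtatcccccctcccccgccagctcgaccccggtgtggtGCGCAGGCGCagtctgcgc

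NDUFS3 holds 2 GABP matches, UQCRH and SDHB 1 each, and SDHA 4 NRF1 matches. NRF1 and GABP are transcription factors known to act on many respiratory chain genes. Of the 75 tested subunits, 62 had a promoter matched by symbol. The NRF1 motif lay in 13 of them (21.0%), against 5.53% of 27305 promoters of that length, and the GABP motif in 16 (25.8%), against 8.82%. The YY1 motif AANATGGCG lay in 2 (3.23%, against 1.40%) and the HIF core motif ACGTG in 15 (24.2%, against 18.7%). A match is a description of the letters only.

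With USP37 sg9, subunits of all 5 complexes were higher than in the control. Each subunit was expressed as its deviation from its own mean over the 17 libraries, and the 75 deviations were averaged per library. The mean deviation was 0.52, 0.62 and 0.72 in the 3 sg9 libraries, 0.62 ± 0.10 (SD, n = 3). It was -0.15 and -0.09 in the USP37 control libraries, -0.05 ± 0.05 (SD, n = 3) with sg3, -0.18 ± 0.21 (SD, n = 3) in the HIF2a control, -0.11 ± 0.07 (SD, n = 3) with HIF2a sg4 and -0.20 ± 0.25 (SD, n = 3) with HIF2a sg6. The sg9 libraries lay above the other 14, of which the highest, HIF2a sg6 library 2, reached 0.07. The sg9 libraries were high in each complex, at 0.60 ± 0.09 for complex I, 0.32 ± 0.13 for complex II, 0.66 ± 0.08 for complex III, 0.78 ± 0.10 for complex IV and 0.62 ± 0.12 for complex V (SD, n = 3).

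**Figure D1:**
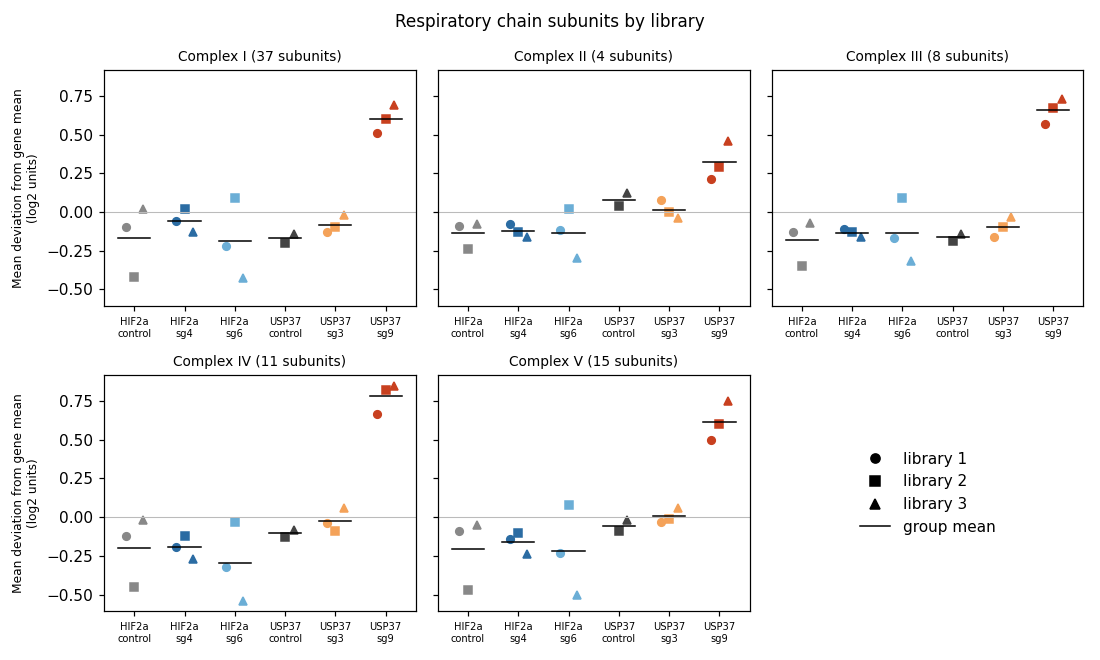
Mean deviation of the tested subunits from their gene means (log2 units, vertical axis) in each library, by group (horizontal axis) and complex (panels); points are libraries, with the library number as the marker, and bars are group means. The 3 USP37 sg9 libraries lie above the other 14 in every panel, lowest in complex II (0.21 to 0.46) and highest in complex IV (0.67 to 0.85).

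Against the USP37 control, 69 of the 79 tested symbols passed with sg9, 68 higher and 1 lower, where 47.8% of all tested genes passed (24.6% higher and 23.2% lower). Among the 75 subunits 65 were higher and SDHA was lower, with a median difference of 0.76, and the median over all 12484 genes was 0.00. By complex, 32 of 37 subunits were higher for I, 3 of 4 for II, 7 of 8 for III, 11 of 11 for IV and 12 of 15 for V, with medians of 0.74, 0.45, 0.88, 0.92 and 0.82. Subunits that passed in neither direction, named after their values were seen, included NDUFS8, NDUFA5, NDUFA10, NDUFB11, UQCRC1, ATP5A1, ATP5B and ATP5C1, with differences of 0.08 to 0.24. For 52 of the 75 subunits (69.3%) all 3 sg9 libraries lay above all 14 others, against 10.1% of all tested genes, and this held for 11 of 11 in complex IV. In bulk RNA, more cells with a transcript and more transcript per cell cannot be told apart.

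The guides against USP37 differed from each other. With sg3, 9 of 79 symbols passed, 6 higher and 3 lower, where 35.2% of all tested genes passed (16.8% higher and 18.4% lower). This count was 23 with the USP37 experiment fitted alone, 19 with length and GC content taken out and 17 with library weights. Of all genes, these fits called 36.4%, 39.9% and 40.5%. The count fell without USP37 control library 3, which leaves 1 control library. Among the subunits 5 were higher and 3 lower, with a median of 0.06. Tested directly, sg9 against sg3, 64 of 79 symbols were higher, where 30.8% of all tested genes passed (16.6% higher), and the median of the 75 subunits was 0.63, with 0.01 over all genes. Of the 68 symbols higher with sg9 against control, 61 were also higher than with sg3. The targeted transcript did not pass in that comparison: USP37 differed by -0.20 (SE 0.14, adjusted p = 0.304) and EPAS1 by -0.10 (SE 0.12, adjusted p = 0.535). The mean of both USP37 guides gave 47 symbols, 46 higher and 1 lower, where 44.3% of all genes passed (22.4% higher and 21.9% lower). This count fell without control library 2, which leaves 1 control library. The subunit median was then 0.41, against 0.44 in the main fit.

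**Figure D2:**
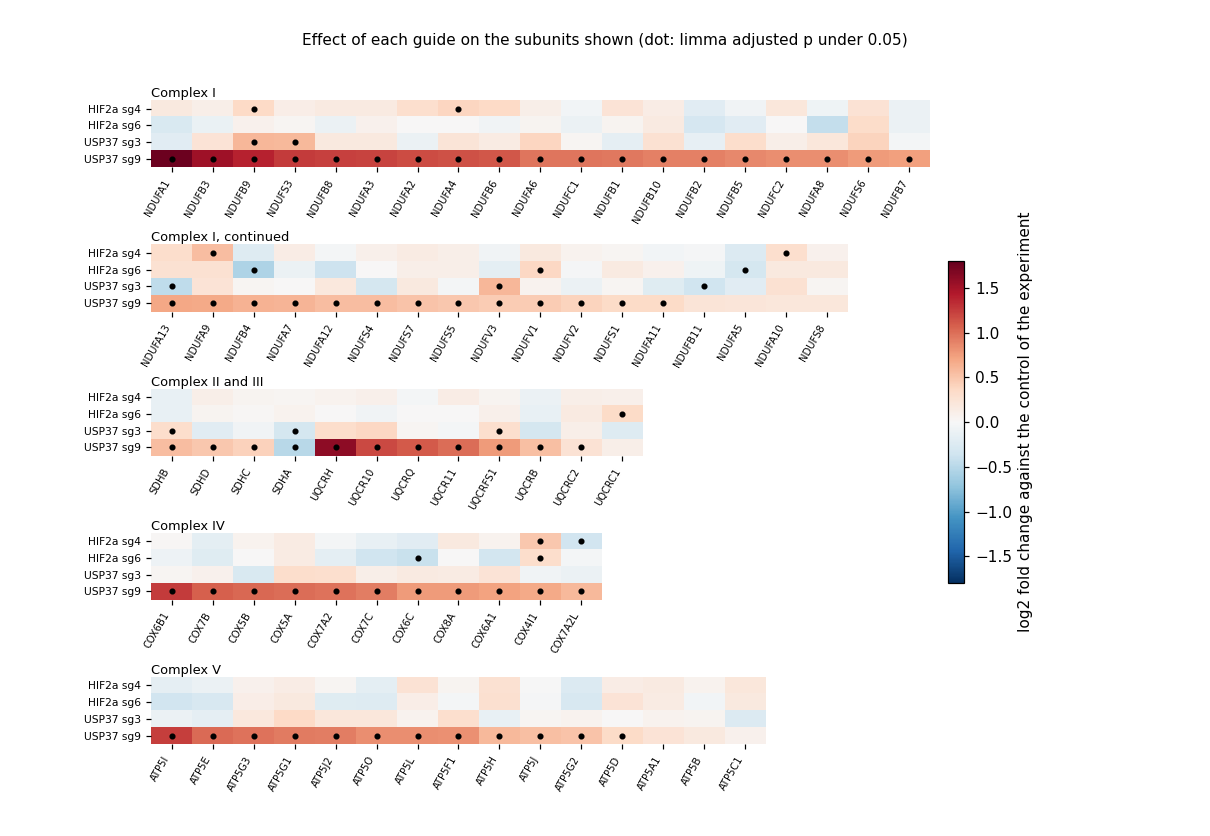
Difference of each guide from the control of its experiment (log2 fold change, colour scale) for tested subunits (horizontal axis, by complex, ordered by the sg9 value); a dot marks an adjusted p under 0.05. The sg9 rows are red from complex I to V with SDHA blue, and the sg3, HIF2a sg4 and HIF2a sg6 rows carry few dots.

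Complex I is built of 7 nuclear core subunits, which hold the flavin and iron-sulfur clusters, and of accessory subunits around them. With sg9, 5 of the 7 core subunits were higher (median 0.40) and 26 of the 29 accessory subunits (median 0.83). NDUFS3, a core subunit of the peripheral arm, was at 9.07 and 8.72 in the USP37 control, 9.60, 9.30 and 9.53 with sg3 and 9.88, 10.18 and 10.40 with sg9. The groups did not overlap, and sg3 lay between control and sg9. Its difference from control was 0.58 with sg3 (SE 0.17, adjusted p = 0.0125) and 1.26 with sg9 (SE 0.17, adjusted p = 8.41e-06), and sg9 exceeded sg3 by 0.68 (SE 0.16, adjusted p = 0.00283). In the HIF2a experiment NDUFS3 was at 8.94 to 9.55 in all 9 libraries, with no difference that passed.

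NDUFB9, an accessory subunit of the membrane arm, was at 11.36 and 11.47 in the control, 11.96, 11.94 and 12.14 with sg3 and 12.63, 12.85 and 12.90 with sg9. The 3 groups again followed in that order without overlap, with differences from control of 0.60 (SE 0.14, adjusted p = 0.00253) and 1.38 (SE 0.14, adjusted p = 2.87e-07). NDUFV3, a small accessory subunit of the peripheral arm, was at 8.09 and 8.22 in the control, 8.77, 8.77 and 8.71 with sg3 and 8.79, 8.36 and 8.69 with sg9. Both guides passed, at 0.60 (SE 0.14, adjusted p = 0.00265) and 0.46 (SE 0.14, adjusted p = 0.0117), and their libraries overlapped each other.

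NDUFS1, the largest core subunit, was at 11.01 and 10.91 in the control, 10.93, 11.10 and 10.93 with sg3 and 11.25, 11.23 and 11.46 with sg9. Only the sg9 libraries were clear of the control, by 0.35 (SE 0.09, adjusted p = 0.00417). NDUFA1, an accessory subunit encoded on the X chromosome, had the largest difference between guides among the members that passed. It was at 8.36 and 8.44 in the USP37 control, 7.91, 8.41 and 8.25 with sg3 and 9.79, 10.31 and 10.42 with sg9, so that sg9 exceeded sg3 by 1.98 (SE 0.27, adjusted p = 4.15e-05). In the HIF2a experiment NDUFA1 spread from 8.68 to 10.06, so the sg9 libraries were not above all others. NDUFB3, of the membrane arm, was at 9.16 and 9.01 in the control, 9.12, 9.34 and 9.56 with sg3 and 10.33, 10.69 and 10.79 with sg9.

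Complex II has 4 subunits and no mitochondrially encoded part, and its members went in opposite directions. SDHA, the flavoprotein that oxidises succinate, was at 12.07 and 12.16 in the USP37 control, 11.87, 11.80 and 11.73 with sg3 and 11.74, 11.54 and 11.56 with sg9. Every library of either guide lay below both controls and below all 9 HIF2a libraries, which spanned 11.91 to 12.13. SDHA fell by 0.32 with sg3 (SE 0.09, adjusted p = 0.0098) and by 0.50 with sg9 (SE 0.09, adjusted p = 0.000143), and the guides did not differ past the threshold (-0.19, SE 0.08, 95% interval -0.36 to -0.02, adjusted p = 0.0824). SDHA has near-identical pseudogene copies, and how reads were shared among them is not given in the sources used here.

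SDHB, the iron-sulfur subunit that pairs with SDHA, was at 10.17 and 10.38 in the control, 10.69, 10.48 and 10.57 with sg3 and 10.68, 10.79 and 11.02 with sg9. All guide libraries lay above the controls, with differences of 0.31 for sg3 (SE 0.12, adjusted p = 0.0449) and 0.55 for sg9 (SE 0.12, adjusted p = 0.000595). The membrane anchors SDHC and SDHD were higher with sg9 alone, by 0.41 (SE 0.12, adjusted p = 0.0106) and 0.49 (SE 0.15, adjusted p = 0.0135), and sg9 exceeded sg3 by 0.47 (SE 0.11, adjusted p = 0.00377) and 0.68 (SE 0.14, adjusted p = 0.00115). With sg3 SDHC differed by -0.06 and SDHD by -0.20, and neither passed.

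**Figure D3:**
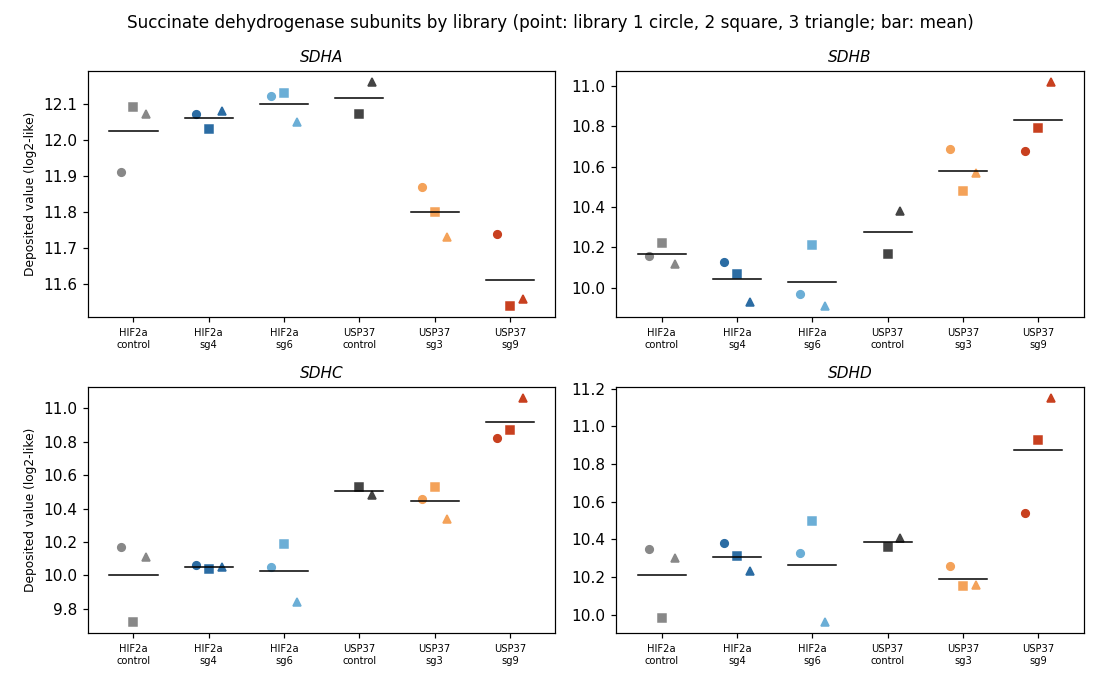
Deposited values (log2-like, vertical axis) of SDHA, SDHB, SDHC and SDHD in each library, by group (horizontal axis); points are libraries, with the library number as the marker, and bars are group means. SDHA is lower in all 6 libraries of the USP37 guides (11.54 to 11.87), while SDHB is higher in them (10.48 to 11.02).

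In complex III the 5 small subunits were all higher with sg9 (median 1.11), and 2 of the 3 genes for the core proteins and the Rieske protein (median 0.26). UQCRH, the hinge protein that helps cytochrome c bind, was at 10.58 and 10.55 in the control, 10.74, 10.89 and 11.01 with sg3 and 11.90, 12.25 and 12.39 with sg9. The sg9 libraries lay above all others, including the HIF2a libraries at 10.96 to 11.50, and the difference from control was 1.61 (SE 0.15, adjusted p = 7.05e-08). With sg3 the difference of 0.31 did not pass (SE 0.15, adjusted p = 0.103). Its retrocopy UQCRHL was near the floor, at 5.39 to 5.99.

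UQCRFS1, the Rieske iron-sulfur protein, was at 10.43 and 10.52 in the control, 10.72, 10.77 and 10.84 with sg3 and 11.18, 11.21 and 11.32 with sg9. The order was control, sg3, sg9 without overlap, with differences of 0.30 (SE 0.11, adjusted p = 0.0448) and 0.76 (SE 0.11, adjusted p = 2.2e-05). UQCRC1, a core protein, did not pass with sg9 (0.11, SE 0.09) or with sg3 (-0.23, SE 0.09, adjusted p = 0.057), although sg9 exceeded sg3 by 0.34 (SE 0.08, adjusted p = 0.00399).

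In complex IV the 11 tested nuclear subunits were all higher with sg9, by 0.58 to 1.26, and the differences with sg3 lay between -0.28 and 0.31 with 0 of 11 passing and 1 at an unadjusted p under 0.05. COX6B1, which faces the partner enzyme in the dimer, was at 9.55 and 9.34 in the control, 9.32, 9.43 and 9.68 with sg3 and 10.52, 10.75 and 10.84 with sg9. Control and sg3 overlapped, and sg9 differed from control by 1.26 (SE 0.15, adjusted p = 1.28e-06). COX5B was at 10.34 and 10.24 in the control, 10.03, 9.92 and 10.08 with sg3 and 11.12, 11.52 and 11.37 with sg9. Here sg3 lay below the control without passing (-0.28, SE 0.15, adjusted p = 0.15), and sg9 exceeded sg3 by 1.33 (SE 0.13, adjusted p = 2.83e-06).

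Several complex IV subunits have isoforms that depend on oxygen or tissue. COX4I1, the common form of subunit 4, was at 11.93 and 12.01 in the USP37 control, 11.86, 11.83 and 12.01 with sg3 and 12.62, 12.68 and 12.66 with sg9, a difference of 0.68 for sg9 (SE 0.13, adjusted p = 0.000212). COX4I2, the form known to respond to hypoxia in lung and other tissues, was at 5.11 to 5.37 in every library. COX7A2, the common form of subunit 7A, was at 10.17 and 10.25 in the control and 10.93, 11.29 and 11.35 with sg9 (0.98, SE 0.17, adjusted p = 9.98e-05), while the muscle form COX7A1 was at 5.12 to 5.76.

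NDUFA4, the complex IV protein with a complex I name, was at 10.89 and 11 in the control, 11.22, 11.17 and 11.15 with sg3 and 11.82, 12.13 and 12.30 with sg9 (1.14, SE 0.16, adjusted p = 8.09e-06). Its paralog NDUFA4L2, a known HIF target in renal carcinoma, was near the floor at 5.18 to 5.90. COX6C, a small membrane subunit, differed by 0.77 with sg9 (SE 0.12, adjusted p = 2.42e-05).

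**Figure D4:**
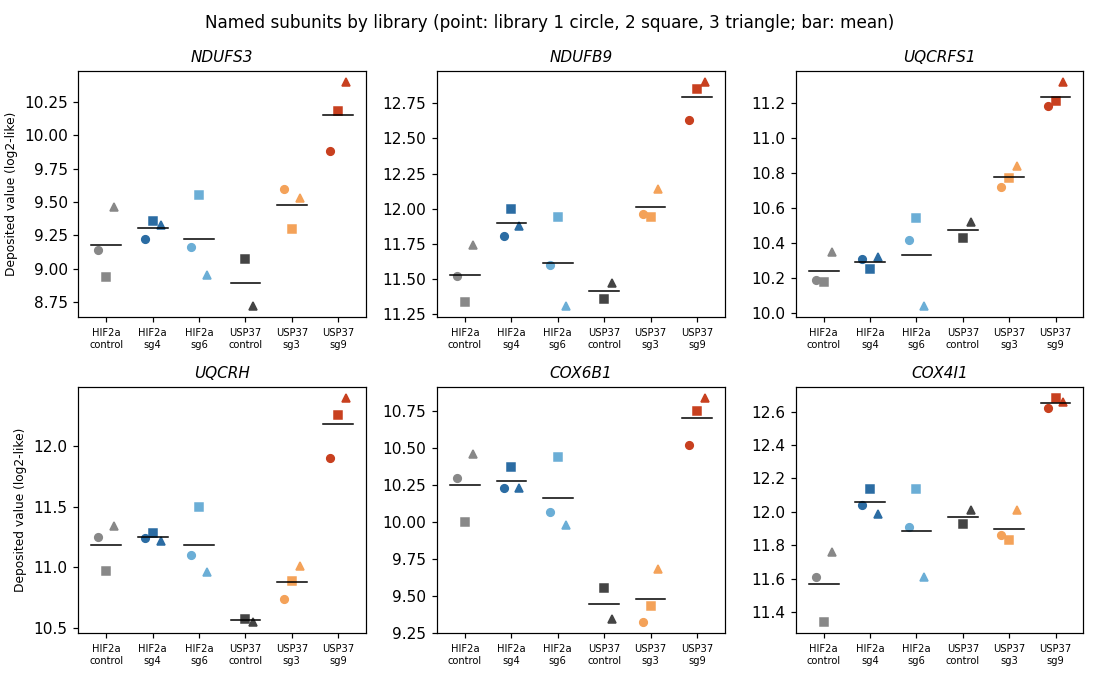
Deposited values (log2-like, vertical axis) of NDUFS3, NDUFB9, UQCRFS1, UQCRH, COX6B1 and COX4I1 in each library, by group (horizontal axis); points are libraries, with the library number as the marker, and bars are group means. In all 6 panels the 3 USP37 sg9 libraries are the highest, and in the first 4 panels the sg3 libraries lie between the USP37 control and sg9.

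The ATP synthase has a catalytic F1 head, a peripheral stalk, and a membrane part with the rotating c ring. With sg9, 2 of 5 genes of the head were higher (median 0.24), against 4 of 4 of the stalk (0.70), 3 of 3 of the c ring (0.93) and 3 of 3 of the other membrane subunits (0.92). ATP5B, the catalytic beta subunit, was at 12.92 and 12.88 in the control, 12.89, 12.93 and 13.02 with sg3 and 12.94, 13.04 and 13.27 with sg9. Its difference of 0.18 with sg9 did not pass (SE 0.11, 95% interval -0.05 to 0.42, adjusted p = 0.18). ATP5I, a membrane subunit of the dimer interface, was at 8.99 and 9.18 in the control, 8.75, 9.07 and 9.09 with sg3 and 10.21, 10.43 and 10.32 with sg9, so that sg9 stood 1.24 above control (SE 0.23, adjusted p = 0.000196) and 1.35 above sg3 (SE 0.21, adjusted p = 0.000103).

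Subunits higher with both USP37 guides and with their mean were NDUFB9, NDUFS3, NDUFV3, UQCRFS1 and SDHB, and SDHA was lower with both. The readthrough gene ATP5J2-PTCD1 was also higher, by 0.46 in the mean of the guides (SE 0.10, adjusted p = 0.0011), and it shares exons with ATP5J2 and PTCD1. Over all tested genes 11.4% were higher and 13.4% lower with both. The sg3 calls were fragile for SDHB, which kept its call in 7 of 15 alternative settings (adjusted p up to 0.351), and for UQCRFS1, in 6 of 15 (up to 0.221). The subunits NDUFA13, at -0.46, and NDUFB11, at -0.36, were lower with sg3 alone. Both are named to complete the count and were chosen after their values were seen.

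Subunit transcripts were short by the measure used: the median transcript length of the 75 subunits was 703 bases, against 1814 for all tested genes with a length. A gene's length is the median over its annotated protein-coding transcripts, so it can be shorter than the transcript mainly expressed. ATP5B was put at 856 bases and UQCRC2 at 586. The length results below rest on these values. In the sg9 libraries short transcripts stood high in general. Among genes outside the symbol rule, the shortest 25% (up to 1006 bases) had a median sg9 difference of 0.11 with 33.6% higher, and the longest 25% (from 3091 bases) had -0.17 with 12.5% higher. By library the shortest transcripts deviated by 0.10 to 0.14 in the sg9 libraries and by -0.12 to 0.02 in the other 14. Across the 75 subunits, which share the libraries and are not independent, the sg9 difference had a Spearman correlation of -0.37 with length, and -0.26 across all 12270 genes with a length.

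With length and GC content taken out of each library by a smooth fit over genes, 61 of 75 subunits were higher with sg9 and 1 lower, with a median of 0.59. The shortest transcripts of the other genes then had a median of -0.03. Against sg3, 58 subunits were higher and 1 lower with a median of 0.49, and the shortest transcripts of the other genes had a median of -0.04. SDHA stayed lower at -0.54 and UQCRFS1, one of the longer transcripts at 3475 bases, was at 0.96. With sg3 the same correction gave 15 higher and 3 lower of 75. Of all genes in these corrected fits, 39.9% passed with sg3, 49% with sg9 and 29.5% for sg9 against sg3.

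**Figure D5:**
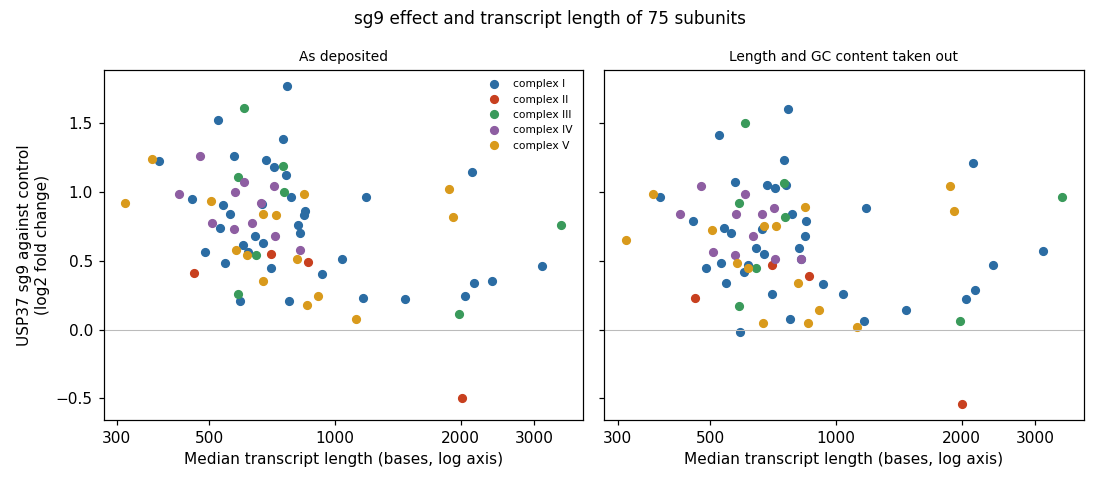
USP37 sg9 difference from control (log2 fold change, vertical axis) against median transcript length (bases, log axis) for the 75 tested subunits coloured by complex, as deposited (left) and with length and GC content taken out (right). The differences stay above 0 for most subunits in both panels, with medians of 0.76 and 0.59, and SDHA is the single point well below 0.

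Ribosomal protein genes, which are also short and abundant, were higher with sg9 as well: 70 of 80 cytosolic ribosomal protein genes (median 0.69) and 67 of 78 mitochondrial ribosomal protein genes (median 0.68). Their mean deviations in the sg9 libraries, 0.55 to 0.76 and 0.54 to 0.73, were close to the 0.52 to 0.72 of the subunits. With sg3, 5 of the 80 cytosolic (6.25%) and 36 of the 78 mitochondrial ribosomal protein genes (46.2%) were higher, with medians of 0.03 and 0.32. Over all tested genes 24.6% were higher with sg9 and 16.8% with sg3. The part of ribosomal and other abundant transcripts in the subunit values was not tested.

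Of the genes that build the chain, 10 of 15 complex I assembly factors were higher with sg9 and 0 lower, and for complexes II to V 29 of 38 were higher and 1 lower, where 24.6% of all tested genes were higher and 23.2% lower. With sg3 the counts were 4 higher of 15, and 10 higher and 4 lower of 38, which is 26.7% and 36.8% called, where 35.2% of all tested genes passed (16.8% higher and 18.4% lower). NDUFAF8, an assembly factor of complex I, rose by 1.61 with sg9 (adjusted p = 3.18e-06) and 0.82 with sg3 (adjusted p = 0.00343). BCS1L, which inserts the Rieske protein into complex III, rose by 1.08 with sg9 (adjusted p = 1.78e-05) and 1.05 with sg3 (adjusted p = 3.68e-05). SDHAF3, an assembly factor of the iron-sulfur subunit SDHB, rose by 0.94 (adjusted p = 6.67e-05) and 0.67 (adjusted p = 0.00236).

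Of 15 tested chain components outside the symbol rule, 9 were higher and 1 lower with sg9 (66.7% called, against 47.8% of all tested genes). With sg3, 3 were higher and 3 lower (40% called, against 35.2%), which is near the share of all genes. Cytochrome c, CYCS, rose by 1.35 with sg9 (adjusted p = 9.49e-06) and 0.64 with sg3 (adjusted p = 0.0118), and CYC1, the cytochrome c1 subunit of complex III, by 0.86 (adjusted p = 2.2e-05) and 0.48 (adjusted p = 0.00655). USMG5, a subunit of the ATP synthase, rose by 1.40 with sg9 (adjusted p = 0.000117) and was at 0.20 with sg3 (adjusted p = 0.564).

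Among 15 regulators of mitochondrial biogenesis, 8 were higher and 3 lower with sg9 (73.3% called, against 47.8% of all tested genes) and 6 were higher and 2 lower with sg3 (53.3% called, against 35.2%). PPRC1, a coactivator of the PGC-1 family, rose by 0.50 with sg9 (adjusted p = 0.000514) and 0.92 with sg3 (adjusted p = 1.04e-06), and the factor NRF1 by 0.41 (adjusted p = 0.00823) and 0.50 (adjusted p = 0.00254). PPARGC1A, which codes for PGC-1 alpha, fell by 0.76 with sg9 (adjusted p = 0.00714) and by 0.60 with sg3 (adjusted p = 0.0387). TFB2M, a factor for transcription in mitochondria, rose by 0.83 (adjusted p = 0.00013) and 0.51 (adjusted p = 0.0105). Of 23 genes of the citrate cycle and pyruvate dehydrogenase, 5 were higher and 4 lower with sg9, with a median of 0.00. Their 39.1% called lies below the 47.8% of all tested genes. IDH2, the mitochondrial NADP-linked isocitrate dehydrogenase, fell by 0.85 with sg9 (adjusted p = 1.06e-05) and by 0.81 with sg3 (adjusted p = 2.64e-05).

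The HIF2a guides left most subunits near their control. In the mean of the guides 9 of 79 symbols passed, 6 higher and 3 lower, where 30.6% of all tested genes passed, and the median of the 75 subunits was 0.04. With sg4, 6 passed (5 higher, 1 lower, against 25.3% of all genes) and with sg6 also 6 (3 higher, 3 lower, against 29%). Sg6 against sg4 gave 1, UQCRC1 at 0.27, where 9.22% of all genes passed (4.86% higher and 4.36% lower). In complex II 0 of 4 subunits passed in the mean of the guides and 0 had an unadjusted p under 0.05.

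COX4I1 was the single subunit that passed with both HIF2a guides and their mean, where 9.04% of all tested genes were higher and 7.48% lower with both. It was at 11.61, 11.34 and 11.76 in the HIF2a control, 12.04, 12.14 and 11.99 with sg4 and 11.91, 12.14 and 11.61 with sg6. The sg4 libraries lay above all controls, and the sg6 libraries overlapped them. The difference was 0.40 in the mean (SE 0.10, adjusted p = 0.00365), 0.49 with sg4 (SE 0.12, adjusted p = 0.00286) and 0.32 with sg6 (SE 0.12, adjusted p = 0.0424), and the sg6 call held in 5 of 17 alternative settings (adjusted p up to 0.331). The USP37 control, at 11.93 and 12.01, was as high as the HIF2a guide libraries.

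The other 8 subunits that passed in the mean of the HIF2a guides are named to complete the count, after their values were seen: NDUFA9, NDUFA10, NDUFV1, UQCRC1 and ATP5H were higher, by 0.22 to 0.41, and NDUFA5, NDUFB4 and COX6C lower, by 0.29 to 0.40. The guide and control libraries overlapped for all of these 9 but NDUFV1 and NDUFA5. The share of all tested genes without such overlap was not counted, so this is a description only. The 3 libraries that stood apart bear on this comparison, with mean subunit deviations of -0.42 in control library 2, 0.07 in sg6 library 2 and -0.44 in sg6 library 3. Their shortest transcripts deviated by -0.09, 0.02 and -0.12, against -0.05 to -0.01 in the other 6 HIF2a libraries.

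Without these 3 libraries, 21 of 79 symbols passed in the mean of the HIF2a guides, 4 higher and 17 lower, where 24.7% of all tested genes passed, and the subunit median was -0.09. The same omission leaves 1 sg6 library. Its subunit medians were -0.02 with sg4 and -0.17 with sg6, against 0.08 and 0.00 in the main fit. The direction of the HIF2a counts therefore turned with these libraries. Single libraries were enough: the count was 15 (4 higher, 11 lower) without control library 2, 14 (12 higher, 2 lower) without sg6 library 3, 5 without sg4 library 3 and 2 without control library 1. Of all tested genes, these fits called 26.3%, 31.6%, 26.8% and 21.3%.

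With the HIF2a guides 20% of the complex I assembly factors, 21.1% of those of complexes II to V and 26.7% of the other chain components passed, where 30.6% of all tested genes passed. The share was 46.7% of the regulators of biogenesis and 43.5% of the citrate cycle and pyruvate dehydrogenase genes, and the difference from all genes was not tested. Of the 15 regulators of biogenesis 5 were higher and 2 lower, with PPARGC1A at 0.90 (SE 0.17, adjusted p = 0.000306), PPARGC1B at 0.41 (adjusted p = 0.0256) and GABPA, the DNA-binding subunit of GABP, at -0.41 (adjusted p = 0.00028). Of the 23 citrate cycle and pyruvate dehydrogenase genes 8 were higher and 2 lower. PDK4 and PDK3, kinases that shut off pyruvate dehydrogenase, rose by 0.65 (adjusted p = 0.00147) and 0.51 (adjusted p = 0.000796), and OGDH of the cycle by 0.47 (adjusted p = 6.29e-05). Among assembly factors COX17, a copper chaperone of complex IV, fell by 0.66 (adjusted p = 0.00017), and SCO2, which also delivers copper, rose by 0.50 (adjusted p = 0.0133). ACAD9, of complex I assembly, fell by 0.35 (adjusted p = 0.00129). Of the other chain components, COQ9, needed for ubiquinone synthesis, rose by 0.47 (adjusted p = 0.000112) and ETFDH fell by 0.51 (adjusted p = 0.00186).

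The effect of the USP37 guides and that of the HIF2a guides were compared in an interaction contrast, each effect being the mean of the guides against its own control. Of 79 symbols 36 differed, 34 more positive and 2 more negative with the USP37 guides, where 38.6% of all tested genes differed (19.6% more positive and 19% more negative), and the median over the 75 subunits was 0.45. The count fell without USP37 control library 2 and rose without the 3 HIF2a libraries that stood apart. Each of these fits leaves 1 library in a group. Their subunit medians were 0.42 and 0.53, with 0.02 and 0.01 over all genes. The largest difference was that of UQCRH, at 0.93 (SE 0.17, adjusted p = 0.000276), with guide effects of 0.96 for USP37 and 0.03 for HIF2a. The more negative members were SDHA, at -0.46 (SE 0.11, adjusted p = 0.00185), and UQCRC1, at -0.28 (SE 0.11, adjusted p = 0.0476). SDHA kept this call in 27 of 27 alternative settings and UQCRC1 in 10 of 27 (adjusted p up to 0.143).

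The controls of the experiments also differed, and control and experiment cannot be told apart in that comparison. Of 79 symbols 26 passed, 17 higher and 9 lower in the USP37 control, where 40.5% of all tested genes passed (20.1% higher and 20.4% lower). The balance of directions turned with the libraries: 11 were higher and 13 lower without HIF2a control library 2, where 35.3% of all tested genes passed. The subunit median was then 0.03, against 0.12 in the main fit. It was also 0.03 without the 3 HIF2a libraries that stood apart, which leaves 1 sg6 library. Without USP37 control library 3, which leaves 1 control library in that group, the subunit median was 0.08. The lowest were NDUFA1 at -1.12 (SE 0.30, adjusted p = 0.00537), NDUFA3 at -0.98 (SE 0.18, adjusted p = 0.000207) and COX6B1 at -0.81 (SE 0.15, adjusted p = 0.000201), and the highest NDUFA7 at 0.65 (SE 0.16, adjusted p = 0.00299), COX6C at 0.63 (SE 0.12, adjusted p = 0.000243) and NDUFA11 at 0.62 (SE 0.10, adjusted p = 9.13e-05). NDUFA3 was at 8.24, 7.90 and 8.45 in the HIF2a control, 7.40 and 7.04 in the USP37 control and 8.26, 8.48 and 8.58 with USP37 sg9, so the sg9 libraries lay in the range of the HIF2a libraries, which reached 8.61. NDUFA11 was at 10.27, 10.18 and 10.30 in the HIF2a control and 10.78 and 10.96 in the USP37 control, and its sg9 libraries, at 11.20 to 11.22, lay above both.

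Some members share reads with other genes in ways these values do not resolve. NDUFC2 overlaps the readthrough gene NDUFC2-KCTD14, and both were higher with sg9, by 0.84 (adjusted p = 0.000303) and 0.58 (adjusted p = 0.00213). NDUFA6, NDUFB2 and NDUFV2 have antisense genes among the 93 symbols, at 5.11 to 6.47. The library kit does not mark strand, so reads of the overlapping parts cannot be told apart. ATP5SL, named for ATP synthase but known as a factor of complex I assembly, was higher with sg9 by 0.49.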

How the data were processed

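The 17 libraries of polyadenylated RNA were assigned to 6 groups by their treatment labels. The authors deposited one table of variance-stabilised, batch-corrected values on a log2-like scale for 27315 gene symbols. Tools named in the submitters' processing notes are DESeq2, Salmon, cutadapt and STAR 2.5.2b, with hg19 as the build. Their roles and the batch variable are not stated. For every gene the means over libraries numbered 1, 2 and 3 were equal within 6.39e-14, so a term for the library number had been taken out before deposit. The depth per library is unknown, and no intervals from counts are given.

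Genes with a mean at least 1 above the floor of 5.14 were fitted with limma 3.58.1 in R 4.3.3 (6 group means, moderated variances with a trend, 11 residual degrees of freedom, Benjamini-Hochberg within each contrast, threshold 0.05). These degrees of freedom ignore the removed term, so p-values tend to be too small. The USP37 control has no library 1, so equal means over the numbers can also shift differences from that control. The size of such a shift is unknown. Named members were, per experiment, up to 6 rises and 6 falls that passed for the guides' mean and for each guide alone, isoform pairs, 1 core subunit per complex, and the 3 highest and 3 lowest in each other contrast. From each other list the rule names 3 genes, and further list genes were chosen after their values were seen. The members and lists were chosen with earlier results of these data known. Length and GC content are medians over protein-coding transcripts of a GRCh38 annotation, matched by symbol for 98.3% of tested genes and 79 of 79 symbols. The alternatives were no or a stricter filter, no trend, library weights, a block for the library number, each experiment alone, median centring, quantile normalisation, length and GC content taken out, and each library left out. Added after seeing the data were the omission of 3 libraries and chromosome medians taken out. One member counted in the totals is not reported here by name.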

Additional observations from a re-analysis of the deposited data

Results flagged for a closer look

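For 16 of the named members the effect of the USP37 guides differed from that of the HIF2a guides in the interaction test (limma, adjusted p under 0.05 over 12484 genes). Some members were named because they passed in this same contrast, so the count of 16 is partly fixed by that choice. Over all 79 tested symbols 36 differed, where 38.6% of all tested genes did. In complex I the difference was 0.90 for NDUFB3, 0.84 for NDUFS3, 0.77 for NDUFB9, 0.66 for NDUFV3, 0.58 for NDUFA3 and 0.49 for NDUFA4. In complex II it was 0.56 for SDHB and -0.46 for SDHA. In complex III it was 0.93 for UQCRH, 0.46 for UQCRFS1 and -0.28 for UQCRC1. In complex IV it was 0.77 for COX6C, 0.74 for COX7A2 and 0.68 for COX6B1. In complex V it was 0.82 for ATP5I and 0.36 for the readthrough gene ATP5J2-PTCD1. The adjusted p ran from 0.000181 for COX6C to 0.0476 for UQCRC1. Of 27 alternative settings the call held in 10 for UQCRC1, 12 for NDUFA4, 13 for ATP5J2-PTCD1, 19 for NDUFA3, 24 for ATP5I and 26 for UQCRFS1, and in all 27 for the other 10 members. For COX6C the mean of the HIF2a guides was lower than its control (-0.30) and that of the USP37 guides higher (0.47), each past the threshold. Only 1 guide of each pair passed alone, HIF2a sg6 at -0.40 and USP37 sg9 at 0.77. HIF2a sg4 (-0.20, adjusted p = 0.168) and USP37 sg3 (0.16, adjusted p = 0.295) did not pass.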

How the results depend on the processing

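Of the alternative values of the named members, 3832 kept their side of the threshold, 181 lost it and 58 gained it. A difference that did not pass could change sign and still count as kept. COX5B with the HIF2a guides, at 0.03, ran from -0.15 to 0.15 and was kept in 20 of 20 settings. The counts that moved by more than 1.5 times were as follows. For HIF2a sg6 against sg4, the count of 1 was 0 with no filter, no trend, library weights, the replicate block or each experiment alone. In the main fit 8 of 75 subunits had an unadjusted p under 0.05. The count was 2 with length and GC content taken out. Of all tested genes, these alternative fits called 4.59% to 11.6%, against 9.22% in the main fit. For the HIF2a guides the count of 9 was 15 with library weights, 5 with the experiment alone and 21 without the 3 libraries that stood apart. For HIF2a sg4 the count of 6 was 20 with library weights, 10 with length and GC content out and 18 without the 3 libraries, and for sg6 it was 12 and 15 under the last 2. For USP37 sg3 the count of 9 was 17 with library weights, 23 with the experiment alone and 19 with length and GC content out. These fits called 40.5%, 36.4% and 39.9% of all genes, against 35.2% in the main fit. The interaction count of 36 was 55 without the 3 libraries. The cause was not tested.

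With each library left out in turn, the counts ran from 2 to 15 for the HIF2a guides, 2 to 9 for sg4, 3 to 15 for sg6, 0 to 10 for sg6 against sg4, 24 to 47 for the USP37 guides, 4 to 8 for sg3, 57 to 70 for sg9, 58 to 65 for sg9 against sg3, 17 to 49 for the interaction and 13 to 24 for the controls. For sg4 the count was 3 without its library 1 or 2 and 2 without its library 3; for sg6, 15 without its library 2 or control library 2, 10 without library 3 and 3 without its library 1 or control library 1. Without USP37 control library 3, which leaves 1 control library, the counts for sg3 and for the controls fell. For sg6 against sg4 the count was 10 without sg6 library 2, where 12.8% of all tested genes passed. Over the left-out libraries, the share of all genes called ran from 21.3% to 31.7% for the HIF2a guides. It ran from 17.8% to 23.1% for sg4, 20.5% to 28.5% for sg6 and 4.01% to 12.8% for sg6 against sg4. For sg9 against sg3 it ran from 21.9% to 27.9%.

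Whether the library numbers pair the samples could not be checked, because a term for the number was taken out of the values before deposit. With the replicate block the counts were 7 for the HIF2a guides, 43 for the USP37 guides, 6 for sg3, 68 for sg9, 63 for sg9 against sg3 and 33 for the interaction. Depth is unknown and limits what can be said of values near the floor.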
